A study of Homo sapiens with 21 samples.

Results

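The genes described here are 9 genes whose products let tumor cells restrain T cells, NK cells or macrophages: CD274, PDCD1LG2, CD276, CD47, NT5E, PVR, NECTIN2, LGALS9 and IDO1. They were found by matching the Ensembl identifiers of the count table to these symbols, and all 9 were present among 42339 listed genes. Bulk RNA-seq counts came from 21 cultures of BT-549, an established triple-negative breast cancer (TNBC) cell line, with 3 cultures in each of 7 groups. 2D cells, whose titles carry the label WT (wild type), grew as monolayers in medium with serum and insulin. 3D cells grew as mammospheres of passage S6 in MammoCult medium on ultra-low attachment plates, so growth format and medium changed together. A further group of S6 3D cells received 0.75 umol/L GO-203, a peptide inhibitor of the MUC1-C cytoplasmic domain. The 3D cells without GO-203 are labelled as control, and the paper describes its GO-203 comparison as against vehicle. BT-549/tet-MUC1shRNA mammospheres (S6) and BT-549/tet-MYCshRNA mammospheres (S8) were treated with 0.1% DMSO as vehicle or with 500 ng/ml doxycycline (DOX), which induces the hairpin. Each of these lines carries a single shRNA, and no hairpin control with DOX is among the groups, so effects of silencing and of DOX itself cannot be told apart.

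CD274 (PD-L1) and PDCD1LG2 (PD-L2) are ligands of PD-1, the receptor through which tumor cells dampen T cell activity. CD276 (B7-H3) belongs to the same B7 family. PVR (CD155) and NECTIN2 (CD112) bind the inhibitory receptor TIGIT and the activating receptor CD226, and NECTIN2 also binds PVRIG. CD47 binds SIRPA on macrophages and limits phagocytosis. NT5E (CD73) converts extracellular AMP to adenosine, IDO1 converts tryptophan toward kynurenine, and LGALS9 (galectin-9) is a ligand of HAVCR2 (TIM-3). Interferon signaling through JAK and STAT proteins to IRF1 is a well-known inducer of CD274 and of IDO1.

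In GRCh38 with GENCODE release 44, CD274 lies at chr9:5450503-5470566 and PDCD1LG2 at chr9:5510531-5571282, both on the plus strand and separated by 39964 bases. The other genes are CD276 at chr15:73683966-73714514, NT5E at chr6:85449584-85495791, PVR at chr19:44643798-44666162, NECTIN2 at chr19:44846175-44889223 and LGALS9 at chr17:27629798-27649560, all on the plus strand, and CD47 at chr3:108043091-108091862 on the minus strand. Promoter windows from RefSeq (GRCh38.p14, 250 bases before to 50 after the start) were matched for 7 of the 9 genes, and PDCD1LG2 and IDO1 were not matched. Both strands were searched for an ISRE-like element of the kind IRF proteins bind (GAAA, any 2 bases, GAAA), for TTCNNNGAA, a GAS element of the kind STAT proteins bind, for CACGTG, the E-box, for ACGTG, the hypoxia response core that also lies within every CACGTG, and for a kappa-B-like element (GGGA, any base, TTTCC). CD274 is shown because its window held the ISRE-like and GAS matches, and CD47 because it had the highest level per length of the genes whose windows held a match. The CD274 stretch runs from chr9:5450292-5450502 on the plus strand and ends before the first annotated exon. The CD47 stretch is chr3:108091032-108091281 on the minus strand. It precedes the RefSeq start but lies within the GENCODE span of the gene, which begins further upstream. The windows of CD276, NT5E and LGALS9 also begin within the GENCODE span of their gene, so sequence upstream of that span was not searched for these 4 genes. Matched elements are in capitals.
CD274: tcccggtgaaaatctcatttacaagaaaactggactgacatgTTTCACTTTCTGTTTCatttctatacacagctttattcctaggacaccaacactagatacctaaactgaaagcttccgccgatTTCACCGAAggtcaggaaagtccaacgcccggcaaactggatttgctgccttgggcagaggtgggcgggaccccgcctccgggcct
CD47: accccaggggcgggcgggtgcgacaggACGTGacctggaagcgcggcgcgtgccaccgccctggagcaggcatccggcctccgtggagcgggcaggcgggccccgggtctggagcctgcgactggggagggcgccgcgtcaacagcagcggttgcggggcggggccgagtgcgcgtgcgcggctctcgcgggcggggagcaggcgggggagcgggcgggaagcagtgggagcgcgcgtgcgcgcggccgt
The CD274 window held 2 overlapping ISRE-like matches on the reverse strand, starting 208 and 202 bases before the RefSeq start, and a GAS match starting at 125 bases. ISRE-like matches occur in 3.57% and GAS matches in 7.66% of 35116 promoter windows of the same length. The CD47 window held a single ACGTG, which occurs in 21.4% of windows, at 223 bases before the RefSeq start. A further ISRE-like match lay 9 bases before the RefSeq start of LGALS9, and an ACGTG in 1 of the 2 windows of CD276. No E-box and no kappa-B-like match was found in the windows of these genes, compared with 7.26% and 0.558% of all windows.

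Library totals were 38026597 to 99751717 counts. Each targeted gene fell on its own silencing. MUC1 was at 90.4 ± 9.65 CPM (counts per 1e+06 counts, mean ± SD, n = 3) in tet-MUC1shRNA vehicle mammospheres and 21.4 ± 1.81 CPM with DOX, a log2 fold change of -2.06 (SE 0.07, adjusted p = 2.97e-15). MYC was at 415 ± 26.6 and 274 ± 27.2 CPM in the tet-MYCshRNA pair, a log2 fold change of -0.62 (SE 0.08, adjusted p = 9.05e-05). In the same edgeR test, MYC rose by 0.25 on silencing MUC1 (adjusted p = 5.01e-05) and was not called with GO-203 (-0.01). MUC1 rose by 0.33 with GO-203 (adjusted p = 0.00191). Of 18 immune cell markers, 15 were in the table, their sum stayed between 0.882 and 3.16 CPM per library, and the highest value of any was 1.49 CPM for PTPRC. The mesenchymal marker VIM was at 1095 to 2464 CPM as group means. EPCAM and PGR stayed below 0.13 CPM in every library, and ERBB2 was at 20 to 35.8 CPM as group means. The tet-MYCshRNA DOX libraries differed most among themselves, where chi-square divided by its degrees of freedom was 19.5 to 52.8 for pairs of libraries against 4.37 to 21.04 elsewhere, and replicate 1 stood apart from the others. In these bulk samples, fewer cells expressing a gene and less RNA per cell cannot be told apart.

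Levels were compared between genes per length, as CPM per kb of exon. NT5E was first and CD47 second in every group, with NT5E from 43.9 in 2D cells to 321 in tet-MYCshRNA vehicle mammospheres and CD47 from 14.7 in GO-203-treated cells to 37.7 in 2D cells. NECTIN2 and PVR held the next places, at 4.16 to 8.74 and 3.28 to 8.04 CPM per kb. CD276 was at 1.18 to 6.59, PDCD1LG2 at 0.856 to 2.88 and CD274 at 0.350 to 2.03 CPM per kb. PDCD1LG2 thus had the higher level per length of the 2 PD-1 ligands in all 7 groups. IDO1 ranged from 0.0629 to 2.32 CPM per kb, and LGALS9 from 0.0227 to 0.170.

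**Figure D1:**
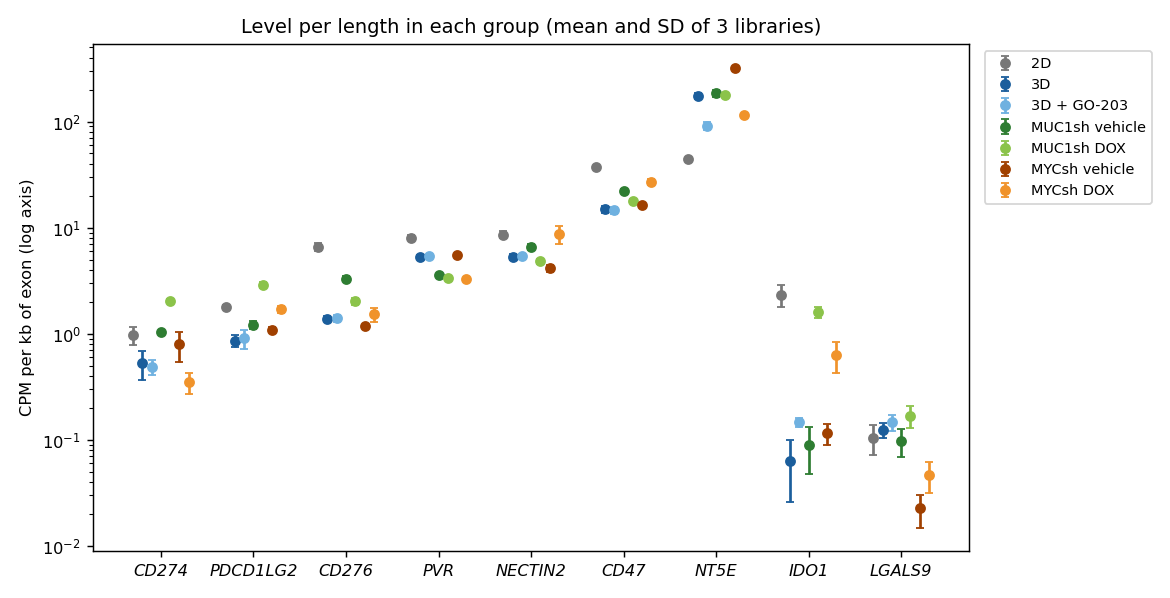
Mean level of each gene in CPM per kb of exon (log axis) in the 7 groups, with bars for the SD of 3 libraries. NT5E and CD47 stood highest in every group, and IDO1 spread the most, from 0.0629 in 3D cells to 2.32 in 2D cells.

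Each comparison was tested with edgeR's quasi-likelihood test over all genes, and a gene was called at an adjusted p below 0.1. In 3D vs. 2D cells, 8 of the 9 genes were called, where 63.7% of all 19190 genes tested were. NT5E was higher (32% of genes) and CD274, PDCD1LG2, CD276, CD47, PVR, NECTIN2 and IDO1 were lower (31.7%). The libraries did not overlap for 8 of 9 genes, against 64.3% of all genes. On silencing MUC1, 7 of 9 were called against 62.2% of genes, 4 higher (30.7%) and 3 lower (31.6%), and 7 of 9 did not overlap (62.8%). On silencing MYC, 8 of 9 were called against 58.5%, 5 higher (30.3%) and 3 lower (28.1%), and 9 of 9 did not overlap (59.7%). With GO-203, 2 of 9 were called against 24.1%, IDO1 higher (11.1%) and NT5E lower (12.9%), and 2 of 9 did not overlap (33.7%). With 9 genes, these shares are descriptions only. With an absolute log2 fold change above 1.5 as a further condition, 3 of 9 were called in 3D vs. 2D cells (16.2% of all genes), 1 of 9 on silencing MUC1 (8.82%), 2 of 9 on silencing MYC (10.5%) and 0 of 9 with GO-203 (0.757%). The control 3D libraries served in both the comparison with 2D cells and that with GO-203.

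**Figure D2:**
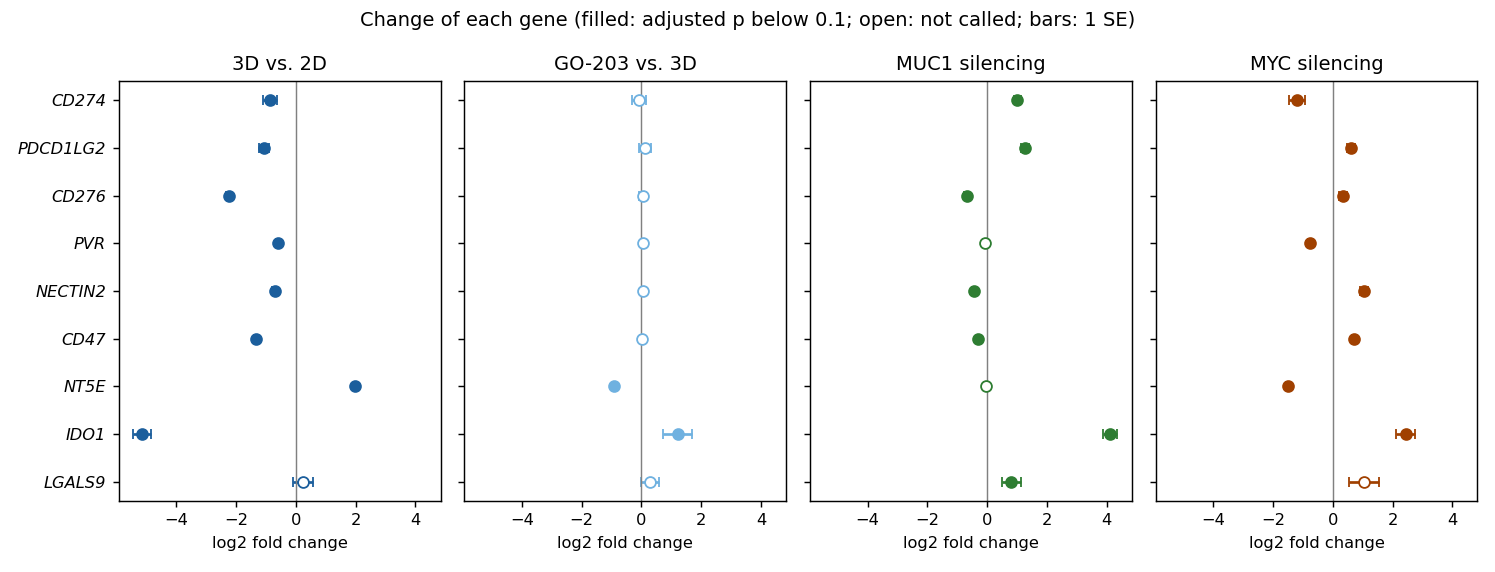
Log2 fold change of each gene in the 4 comparisons, with bars for 1 SE, filled where the adjusted p was below 0.1 and open where it was not. IDO1 moved furthest in 3D vs. 2D cells (-5.14) and on silencing MUC1 (4.11), while 7 genes were not called with GO-203.

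CD274 was at 4.84, 3.56 and 3.56 CPM in the 2D libraries and at 1.41, 2.52 and 2.60 CPM in the 3D libraries. It was at 4.41, 4.21 and 4.05 CPM in the tet-MUC1shRNA vehicle libraries and at 8.28, 7.98 and 8.76 CPM with DOX. In the tet-MYCshRNA pair it was at 2.22, 3.24 and 4.33 CPM with vehicle and at 1.09, 1.74 and 1.49 CPM with DOX. The groups did not overlap in any of these 3 pairs, and CD274 was highest after silencing MUC1 and lowest after silencing MYC, a ratio of 5.80 between these means. It fell in 3D vs. 2D cells (log2 fold change -0.86, SE 0.22, adjusted p = 0.00323), rose on silencing MUC1 (1.004, SE 0.11, adjusted p = 1.57e-07) and fell on silencing MYC (-1.19, SE 0.26, adjusted p = 0.00333). With GO-203 it was at 1.74, 1.93 and 2.35 CPM, within the range of the 3D libraries, and the estimate of -0.09 with 2 SE on either side ran from -0.55 to 0.37. The fall in 3D vs. 2D cells depended on which mammospheres stood for the 3D state. It was 0.08 (adjusted p = 0.647) with tet-MUC1shRNA vehicle mammospheres and -0.29 (adjusted p = 0.27) with tet-MYCshRNA vehicle mammospheres.

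PDCD1LG2, the neighboring PD-1 ligand gene, was at 4.59, 4.36 and 4.16 CPM in 2D and at 1.77, 2.27 and 2.22 CPM in 3D libraries. On silencing MUC1 it went from 3.24, 2.78 and 2.87 CPM to 6.50, 7.02 and 7.51 CPM, the highest level of any group. On silencing MYC it went from 2.62, 2.85 and 2.53 CPM to 4.06, 4.48 and 3.84 CPM. PDCD1LG2 therefore rose in both silencing experiments, by 1.27 (SE 0.13, adjusted p = 4.30e-08) and 0.61 (SE 0.14, adjusted p = 0.0048) on the log2 scale, whereas CD274 rose in the former and fell in the latter. It fell by 1.07 in 3D vs. 2D cells (SE 0.17, adjusted p = 4.03e-05). GO-203-treated libraries, at 2.04, 1.88 and 2.72 CPM, overlapped the control 3D libraries.

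**Figure D3:**
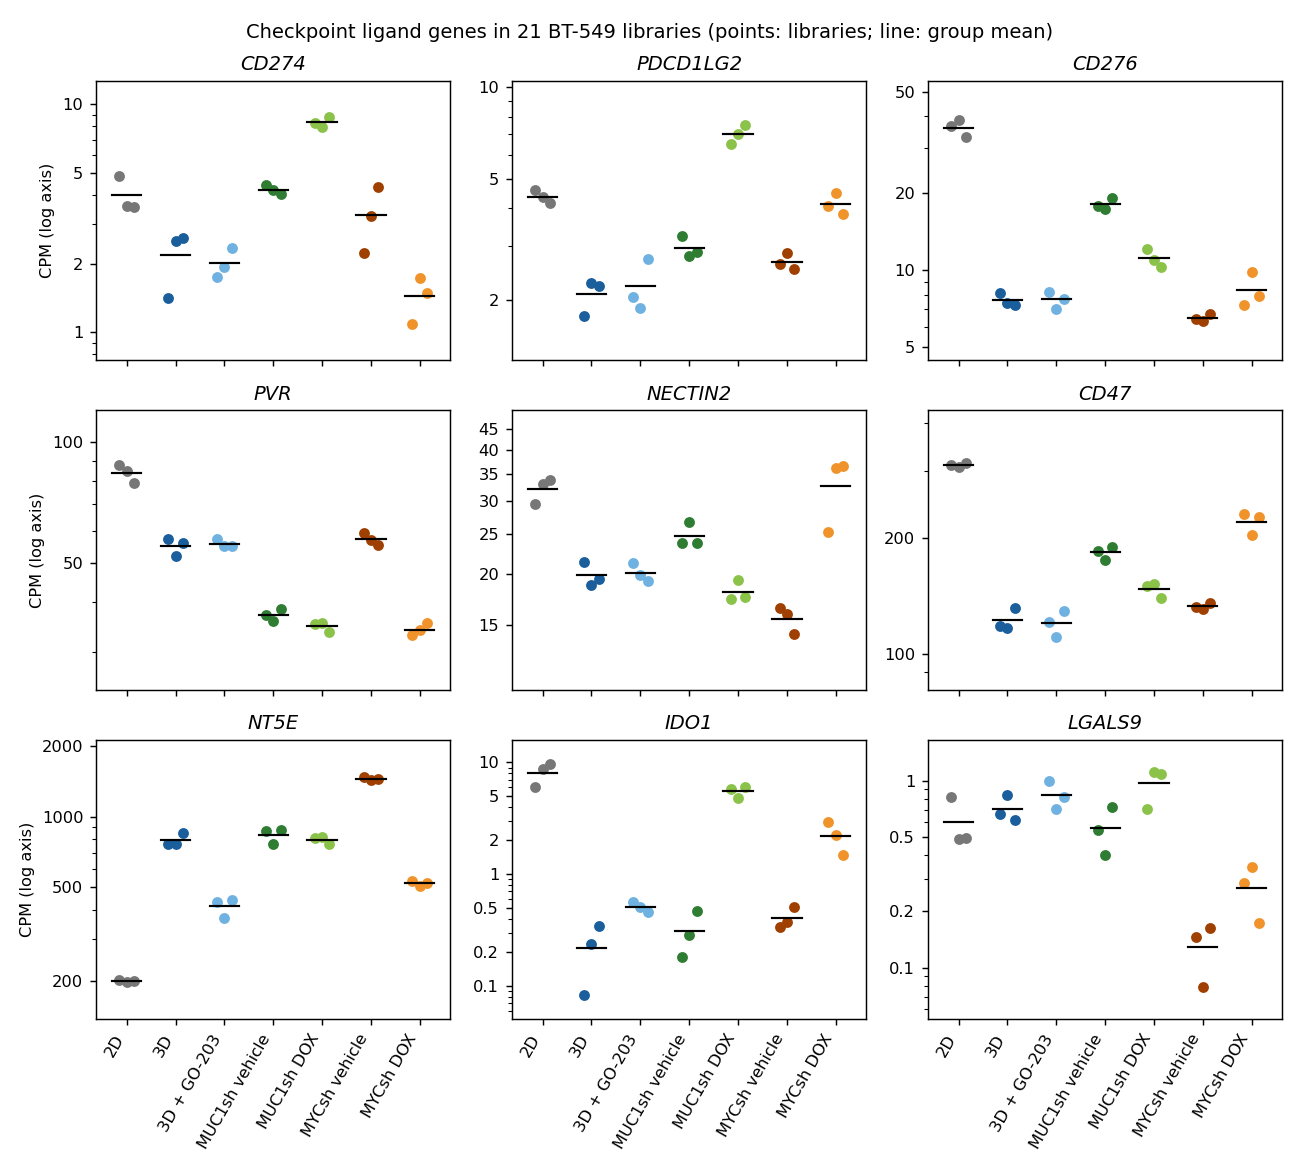
CPM of each of the 9 genes in every library (points) with the group mean (line), on a log axis that differs between panels. CD274 and PDCD1LG2 both reached their highest level in the tet-MUC1shRNA DOX libraries (7.98 to 8.76 and 6.50 to 7.51 CPM), and part ways in the tet-MYCshRNA DOX libraries (1.09 to 1.74 and 3.84 to 4.48 CPM).

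CD276, a B7 family ligand whose receptor is not settled, had the largest fall from 2D to 3D cells among the 9 genes after IDO1. It was at 36.6, 38.6 and 33.2 CPM in 2D libraries and at 8.10, 7.44 and 7.32 CPM in 3D libraries, a log2 fold change of -2.25 (SE 0.09, adjusted p = 1.28e-12) that corresponds to 4.76-fold lower. The tet-MUC1shRNA vehicle mammospheres lay between, at 17.7, 17.4 and 19.2 CPM, and DOX lowered them to 12.04, 11 and 10.3 CPM (-0.68, SE 0.08, adjusted p = 4.08e-07). In the tet-MYCshRNA pair CD276 was at 6.43, 6.30 and 6.70 CPM with vehicle and at 7.30, 9.85 and 7.90 CPM with DOX. This small rise of 0.35 (SE 0.13, adjusted p = 0.0496) was lost when any of the 3 vehicle libraries, or DOX replicate 2, was left out, with adjusted p between 0.106 and 0.186. GO-203 left the estimate at 0.04 (2 SE range -0.19 to 0.27), at 8.23, 7.05 and 7.71 CPM.

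PVR and NECTIN2, the 2 ligands shared by TIGIT and CD226, both fell in 3D vs. 2D cells but separated on silencing MYC. PVR was at 87.9, 84.6 and 79.1 CPM in 2D and 57.5, 52.2 and 56.2 CPM in 3D libraries (-0.61, SE 0.06, adjusted p = 3.72e-07). NECTIN2 was at 29.6, 33.1 and 33.9 CPM in 2D and 21.3, 18.8 and 19.5 CPM in 3D libraries (-0.70, SE 0.08, adjusted p = 9.28e-07). On silencing MYC, PVR fell from 59.6, 56.9 and 55.4 CPM to 33, 34 and 35.4 CPM (-0.77, SE 0.07, adjusted p = 8.32e-06). NECTIN2 rose in the same libraries from 16.5, 16.0 and 14.3 CPM to 25.3, 36.2 and 36.6 CPM (1.05, SE 0.14, adjusted p = 0.000107), with DOX replicate 1 well below the other DOX libraries but above all vehicle libraries. On silencing MUC1, NECTIN2 fell from 23.8, 26.8 and 23.7 CPM to 17.4, 19.3 and 17.6 CPM (-0.43, SE 0.07, adjusted p = 3.65e-05). PVR was at 37.2, 35.9 and 38.4 CPM and then at 35.2, 35.5 and 33.7 CPM, a difference that was not called (-0.07, SE 0.06, adjusted p = 0.292) although the groups did not overlap, as for 62.8% of genes in this comparison. With library size alone as scaling, that PVR estimate became 0.09 and the NECTIN2 fall became -0.26 (adjusted p = 0.00417). Neither gene was called with GO-203, with estimates of 0.05 for each and 2 SE ranges of -0.07 to 0.16 for PVR and -0.11 to 0.21 for NECTIN2. PVR shares 20.6% of its exon bases with other genes on the same strand, so some of its reads could not be assigned to it without doubt. Antisense genes cover 3.42% of the exon bases of NECTIN2 and 3.44% of those of IDO1, and whether counting used strand is not given in the sources used here.

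CD47 was the second most abundant of the 9 genes per length. It was at 310, 306 and 314 CPM in 2D and at 118.5, 117.3 and 132 CPM in 3D libraries (-1.34, SE 0.06, adjusted p = 7.07e-12), 2.54-fold lower. Silencing MUC1 lowered it from 186, 176 and 190 CPM to 150, 153 and 140 CPM (-0.29, SE 0.04, adjusted p = 8.02e-06), a fall that was -0.13 (adjusted p = 0.0129) with library size alone as scaling. Silencing MYC raised it from 133, 131 and 136 CPM to 231, 205 and 227 CPM (0.71, SE 0.07, adjusted p = 7.77e-06), still below the 2D libraries. GO-203-treated libraries were at 122, 111 and 129 CPM, an estimate of 0.01 with a 2 SE range of -0.12 to 0.13. Of 6 partners and modifiers of CD47, 1 rose and 5 fell in 3D vs. 2D cells, 3 rose and 3 fell on silencing MUC1, 4 rose and 1 fell on silencing MYC, and 3 rose and 1 fell with GO-203. The receptor gene SIRPA fell in 3D vs. 2D cells (-2.13) and on silencing MUC1 (-1.68), and THBS1, a secreted CD47 ligand, fell by 3.53 in 3D vs. 2D cells and rose by 4.43 on silencing MUC1, from 57.5 to 1237 CPM. On silencing MYC, QPCT, a glutaminyl cyclase, rose by 1.64 and the integrin gene ITGB3 fell by 1.89.

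NT5E, the ecto-5'-nucleotidase CD73, was the only one of the 9 genes called higher in 3D vs. 2D cells. It was at 201, 197 and 199 CPM in 2D libraries and at 765, 767 and 850 CPM in 3D libraries, a log2 fold change of 1.99 (SE 0.06, adjusted p = 2.31e-14) or 3.97-fold. GO-203 lowered it to 434, 371 and 440 CPM (-0.91, SE 0.06, adjusted p = 1.73e-10), so these libraries lay below all control 3D libraries and above all 2D libraries. Its absolute change with GO-203 exceeded that of 95.6% of all genes tested in that comparison. Silencing MYC lowered it from 1479, 1429 and 1451 CPM to 532, 507 and 519 CPM (-1.504, SE 0.06, adjusted p = 2.03e-08). On silencing MUC1 it was at 868, 769 and 881 CPM with vehicle and 813, 818 and 766 CPM with DOX. These groups overlapped and the difference was not called (-0.05, adjusted p = 0.398, 2 SE range -0.14 to 0.05), but without vehicle replicate 2 it was -0.11 (adjusted p = 0.0256) and with library size alone 0.12 (adjusted p = 0.0245). Values were listed for partly different sets of genes in the GO-203 and the control 3D libraries. Any separate handling of these libraries cannot be told apart from the treatment.

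Of 16 other genes of extracellular adenosine, 11 or 12 were tested in each comparison. In 3D vs. 2D cells 7 rose and 4 fell, with a median log2 fold change of 0.53 against -0.01 over all genes. DPP4, which anchors adenosine deaminase, rose by 3.54, the nucleoside transporter gene SLC29A2 rose by 2.57 and ENPP1, an ectonucleotidase, fell by 1.86. On silencing MUC1, 5 rose and 5 fell (median 0.09), with CD38 higher by 2.40. On silencing MYC, 4 rose and 6 fell (median -0.44). There ENTPD1 (CD39), which produces the AMP that NT5E uses, fell from 26.6 to 7.97 CPM (-1.74, SE 0.15, adjusted p = 3.90e-06), and the transporter gene SLC29A1 fell by 2.13, while ENTPD2 rose by 3.82. With GO-203, 2 rose, 1 fell and 8 were not called.

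IDO1 (chr8:39902275-39928790, plus strand) had the widest range of the 9 genes, 36.9-fold between group means. It was at 5.99, 8.66 and 9.64 CPM in 2D libraries (270 to 564 counts) and at 0.0831, 0.234 and 0.341 CPM in 3D libraries (4 to 22 counts), a log2 fold change of -5.14 (SE 0.30, adjusted p = 2.72e-10) or 35.2-fold lower. Silencing MUC1 raised it from 0.183, 0.282 and 0.472 CPM to 5.77, 4.82 and 6.08 CPM (4.11, SE 0.24, adjusted p = 6.25e-12), 17.3-fold. Silencing MYC raised it from 0.333, 0.374 and 0.506 CPM to 2.93, 2.22 and 1.47 CPM (2.43, SE 0.31, adjusted p = 8.66e-05). The lowest DOX library of either line was above the highest mammosphere library without DOX, and the tet-MUC1shRNA DOX libraries overlapped the range of 2D cells. GO-203-treated libraries were at 0.565, 0.507 and 0.459 CPM (20 to 27 counts), each above the 3D libraries, and the difference of 1.204 (SE 0.49) passed the threshold narrowly, at adjusted p = 0.0962. Leaving out any library other than 3D replicate 3 ended that call, with adjusted p between 0.158 and 0.329, and without 3D replicate 1 the estimate was 0.84.

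Among 20 genes of tryptophan and kynurenine metabolism and sensing, 15 or 16 were tested per comparison. In 3D vs. 2D cells 7 rose and 8 fell (median -0.18). TDO2, which catalyzes the same step as IDO1, had 226 to 532 counts in the 2D libraries and 0 in all 3D libraries, at least 423-fold lower against a floor of 3 counts over the 3D group. AADAT, an aminotransferase that acts on kynurenine, fell by 4.65. On silencing MUC1, 6 rose and 4 fell (median 0.26), with the aryl hydrocarbon receptor target CYP1A1 higher by 2.701 and the tryptophanyl-tRNA synthetase gene WARS1, an interferon-inducible gene, lower by 1.94. On silencing MYC, 8 rose and 3 fell (median 0.44), with KYNU, which cleaves kynurenine, and CYP1B1, another receptor target, higher by 1.92 and 1.76. With GO-203, 6 rose, 1 fell and 8 were not called.

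LGALS9 was the lowest of the 9 genes in 4 of 7 groups per length, with 8 to 80 counts per library. It was at 0.821, 0.487 and 0.496 CPM in 2D and 0.665, 0.839 and 0.620 CPM in 3D libraries, which overlapped (0.24, SE 0.34, adjusted p = 0.569). On silencing MUC1 it went from 0.548, 0.400 and 0.728 CPM to 0.708, 1.12 and 1.09 CPM (0.81, SE 0.32, adjusted p = 0.0399). That call was lost without vehicle replicate 2, DOX replicate 2 or DOX replicate 3, and the groups overlapped. In the tet-MYCshRNA pair it was at 0.146, 0.0788 and 0.163 CPM and then at 0.282, 0.344 and 0.174 CPM, not called at adjusted p = 0.114. It was called without DOX replicate 3 (1.28, adjusted p = 0.089) and in the edgeR fit of all 21 libraries (1.07, adjusted p = 0.0355). With GO-203 it was at 0.995, 0.710 and 0.816 CPM and was not called. The tet-MYCshRNA vehicle mammospheres were 5.47-fold below the 3D cells. Reads of LGALS9 can also match its near-identical copies LGALS9B and LGALS9C, so these values are uncertain.

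To ask whether the difference from 2D cells held for other mammospheres of the same cells, the vehicle-treated mammospheres of each shRNA line were compared with the same 2D libraries. With tet-MUC1shRNA vehicle mammospheres 7 of 9 genes were called, where 73.9% of all genes tested were, and with tet-MYCshRNA vehicle mammospheres 8 of 9, against 66.2%. The first of these shares is close to that of all genes. NT5E was higher in each case, by 1.99, 2.07 and 2.87 on the log2 scale, and IDO1 lower, at -5.14, -4.64 and -4.34. CD276 was lower at -2.25, -1.0 and -2.48, so the tet-MUC1shRNA line differed most from the others there. CD47 (-1.34, -0.76 and -1.21), PVR (-0.61, -1.18 and -0.55), NECTIN2 (-0.70, -0.38 and -1.04) and PDCD1LG2 (-1.07, -0.57 and -0.70) were also lower against each. CD274 was called lower against the 3D cells and not against either vehicle group, and LGALS9 was at 0.24, -0.08 and -2.23, the last with adjusted p = 0.000554. The 3 mammosphere groups without GO-203 or DOX differed among themselves by 1.42-fold for PDCD1LG2 to 2.79-fold for CD276 and 5.47-fold for LGALS9. These 3 comparisons share the 2D libraries, and the line, vehicle and passage differ between the mammosphere groups.

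**Figure D4:**
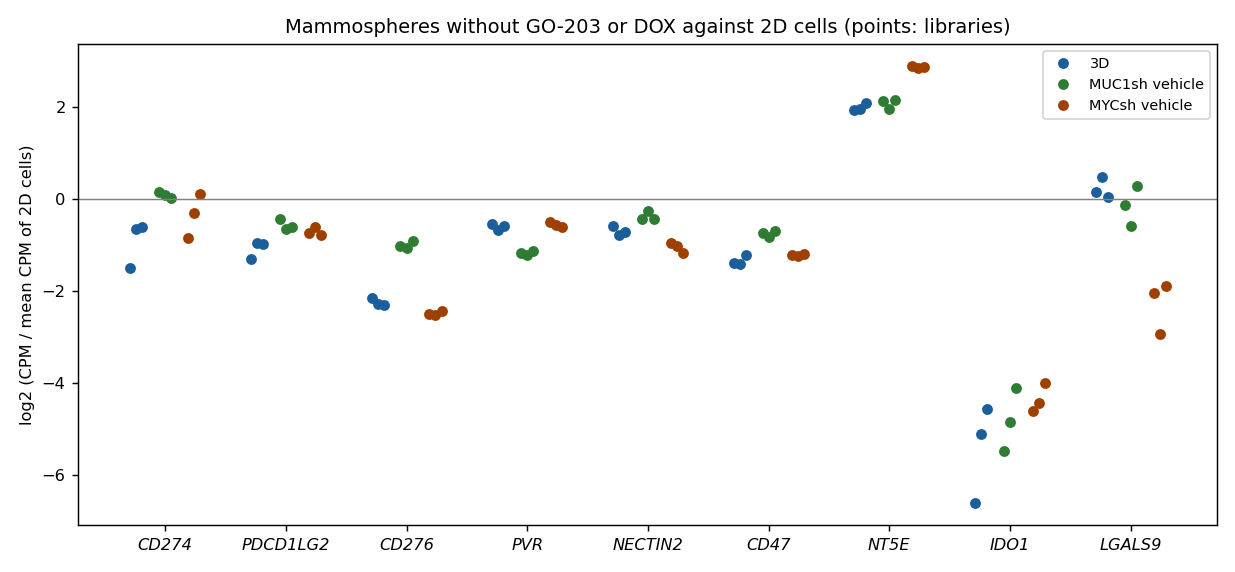
Log2 ratio of each library's CPM to the mean CPM of 2D cells, for the 3 mammosphere groups that received neither GO-203 nor DOX (points are libraries). NT5E lay above 0 and CD276, CD47, PVR, NECTIN2, PDCD1LG2 and IDO1 below 0 in all 9 libraries, while CD274 and LGALS9 did not keep to a single side.

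The interaction of line and DOX was tested over 12 libraries to ask whether silencing MUC1 and silencing MYC changed these genes differently. The change differed for 8 of 9 genes, the exception being LGALS9, where 52.9% of all 21585 genes tested were called. The change on silencing MUC1 was the more positive for 5 genes (26% of all genes) and the more negative for 3 (26.9%). For CD274, CD47, NECTIN2 and CD276 the 2 changes were both called and opposite in sign, although the call for CD276 on silencing MYC was lost in 4 of 6 fits that left out a library and with the replicate block (adjusted p = 0.108). CD276, CD47 and NECTIN2 fell on silencing MUC1 and rose on silencing MYC, and CD274 did the reverse. PDCD1LG2 and IDO1 rose in both, more on silencing MUC1. Silencing MUC1 and GO-203 differed for 7 of 9 genes, all but PVR and LGALS9, against 44.9% of genes, 4 with the more positive change on silencing MUC1 (20.8%) and 3 with the more negative (24.1%). The lines also differ in passage (S6 and S8), and MUC1 itself rose by 1.25 on silencing MYC, from 69.0 to 167 CPM.

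**Figure D5:**
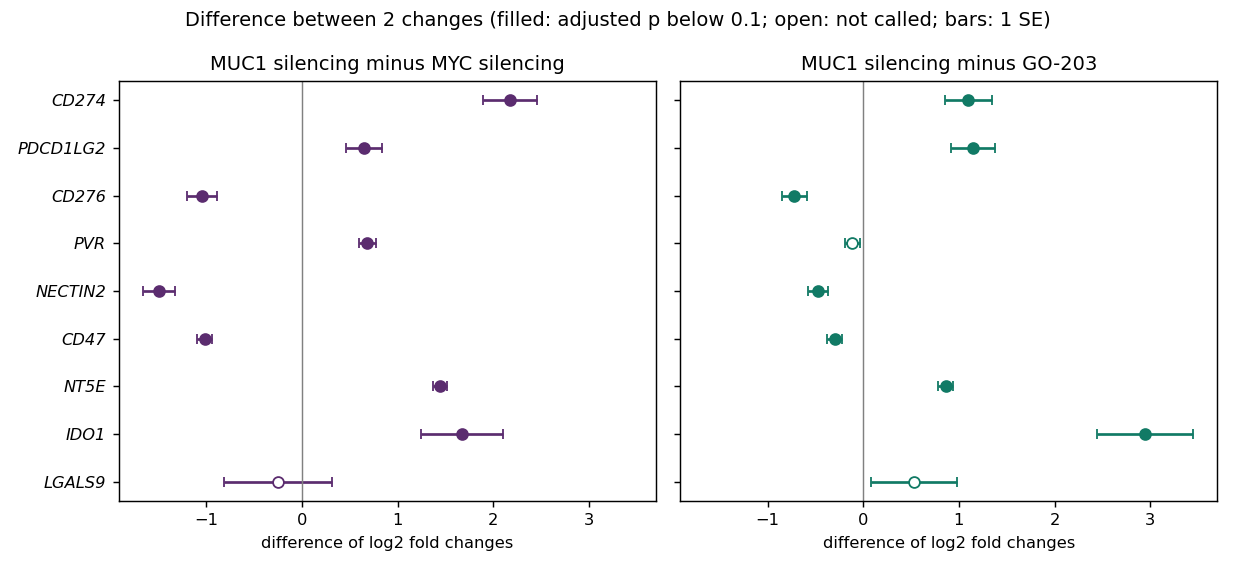
Difference between the log2 fold change on silencing MUC1 and that on silencing MYC (left) or with GO-203 (right), with bars for 1 SE, filled where the adjusted p was below 0.1. CD274 had the largest difference between MUC1 and MYC silencing (2.18), and IDO1 the largest between MUC1 silencing and GO-203 (2.95).

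Of 21 regulators of PD-L1, 20 were tested in each comparison. The list mixes inducers and stabilizers with SPOP, CUL3, GSK3B and STUB1, which are known to promote PD-L1 degradation, so its counts and medians carry no direction for PD-L1. In 3D vs. 2D cells 6 rose and 8 fell (median 0.01). Of its interferon pathway genes, JAK2 (-1.94, from 55.3 to 14.5 CPM), IFNGR1 (-0.79), STAT2 (-0.55) and IRF1 (-0.50) fell, the receptor subunit gene IFNGR2 rose (0.38, adjusted p = 0.0013), and JAK1 (0.08) and IRF9 (0.02) were not called. On silencing MYC 11 rose and 4 fell (median 0.30). STAT2 rose by 1.80 (15.3 to 53.2 CPM), IRF1 by 1.15, JAK2 by 0.80, IFNGR1 by 0.78, IRF9 by 0.61 and JAK1 by 0.49 while CD274 fell, and IFNGR2 was not called (0.05). On silencing MUC1 8 rose and 10 fell (median -0.12). There IRF1 rose by 0.70, JAK1 by 0.40 and IFNGR2 by 0.37, while IFNGR1 fell by 0.88, IRF9 by 0.75 and STAT2 by 0.44. JAK2 was called lower at -0.16 (adjusted p = 0.084), a change smaller than the shift that scaling by library size alone gives to the median of all genes. With GO-203 6 rose and 2 fell. IFNGR1 rose by 0.46, IRF1 by 0.45, JAK2 by 0.23 and STAT2 by 0.20, IFNGR2 fell by 0.21, and JAK1 and IRF9 were not called. Apart from JAK2 in 3D vs. 2D cells and STAT2 on silencing MYC, these genes were chosen for naming after their values were seen. IRF1 thus rose in all 3 treatments of mammospheres and fell in 3D vs. 2D cells. STAT3, also named after its values were seen, did the same. It rose by 0.15 on silencing MUC1, 0.78 on silencing MYC and 0.22 with GO-203, and was at -0.40 in 3D vs. 2D cells. The CD274 stretch printed above holds matches to the elements that IRF and STAT proteins bind, which says nothing on whether they were bound here.

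Of 25 other checkpoint and costimulatory ligands, 13 to 18 were tested in the 4 comparisons. In 3D vs. 2D cells 5 rose and 6 fell (median -0.09). VSIR (VISTA) rose from 0.362 to 14.98 CPM (5.37) and LGALS3 by 3.51, while CD24, a ligand of Siglec-10, fell from 562 to 11.1 CPM (-5.67). CD200, another inhibitory ligand, had 120 to 151 counts in 2D libraries and 0 to 2 in 3D libraries. On silencing MUC1, 8 rose and 6 fell (median 0.16), with CD58, the ligand of CD2, higher by 1.74 and ICOSLG and CD24 lower by 2.40 and 1.67. On silencing MYC, 7 rose and 3 fell (median 0.64), with VSIR higher by 3.34 and TNFSF4 (OX40L) by 1.82. The class I gene HLA-E fell by 0.98 on silencing MUC1 and rose by 1.18 on silencing MYC. With GO-203, 5 rose and 2 fell. Of 16 receptors for these ligands, 5 to 7 were tested. In 3D vs. 2D cells 2 rose and 5 fell, on silencing MUC1 3 rose and 1 fell, on silencing MYC 2 rose and 0 fell, and with GO-203 0 rose and 1 fell. Those named by the rule were SIRPA, given above, CD160 (-1.63 in 3D vs. 2D cells, from 2.43 to 0.783 CPM) and SIRPG (-1.51 with GO-203, from 1.62 to 0.566 CPM).

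Markers of cell state moved in 3 of the 4 comparisons. Of the 4 mesenchymal markers, CDH2 (N-cadherin) fell by 3.11 in 3D vs. 2D cells, while FN1 rose by 3.90, ZEB1 by 1.14 and VIM by 0.12. On silencing MUC1 they split 2 and 2, with CDH2 higher by 2.67 and VIM by 0.18, and ZEB1 lower by 1.42 and FN1 lower by 0.51. On silencing MYC, FN1 rose by 1.25, CDH2 by 0.22 and ZEB1 by 0.16, and VIM fell by 0.18. With GO-203, 0 of 4 mesenchymal and 0 of 2 tested epithelial markers were called. CDH1 (E-cadherin) had 67 to 87 counts in the 2D libraries and 0 in all 3D libraries, and KRT8 rose by 1.51 in 3D vs. 2D cells. Of the 4 epithelial markers, 3 rose on silencing MUC1, with KRT8 from 0.0419 to 1.34 CPM, KRT18 from 0.0379 to 0.887 CPM and CDH1 to 0.310 CPM, all low. The part of these changes in the ligand results was not tested.

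The genes most like each ligand were those with the smallest root mean square difference of centered log2 means over the 7 groups, among 13602 genes with a mean of at least 1 CPM. They were EPB41L4B for CD274 (0.15), CAPS2 for PDCD1LG2 (0.14), TEF for CD276 (0.24), ZNF70 for CD47 (0.09), HMGA1 for NT5E (0.19), XXYLT1 for PVR (0.06), BBS9 for NECTIN2 (0.08) and CALD1 for IDO1 (0.38). The next places went to IL31RA and NOPCHAP1 for CD274, TNRC6B and ANKEF1 for PDCD1LG2, PHGDH and PGM3 for CD276, LINC00460 and FLRT2-AS1 for NT5E, MELK and SMC2 for PVR, ERBB2 and ARMCX3 for NECTIN2 and TENM2 and MGAT4A for IDO1. For CD47 they were DZIP3 and a gene listed without a symbol. LGALS9 had no group mean of at least 1 CPM and was not ranked. These distances describe 7 group means that share libraries and depth.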

How the data were processed

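RNA was sequenced as stranded paired-end poly(A) libraries from 21 BT-549 cultures. The authors deposited raw counts per gene, made by alignment to GRCh38 with STAR and counting with featureCounts. The submitters' processing notes name STAR 2.7.3a, and the study's methods give a later release. The annotation release, strand setting and treatment of multi-mapped reads are not given in the sources used here. Of 42339 gene identifiers, 42252 had a symbol. Values missing for whole blocks of libraries were read as 0. The blocks were the 2D and 3D libraries together, the GO-203 libraries and each shRNA line.

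Replicate libraries all differed by more than sampling noise. Labels name no separate thaws or days, so p-values measure the spread between these cultures. Counts were fitted per comparison on 6 libraries (12 for interactions) with edgeR 4.0.16 in R 4.3.3, using filterByExpr, TMM factors and the quasi-likelihood test, with Benjamini-Hochberg adjustment over all genes tested. CPM was scaled by TMM over 21 libraries and divided by GENCODE 44 exon length for levels between genes. Mean CPM of genes on the other lists was scaled within the comparison, except for markers of cell state, which were scaled over all libraries. SE is the absolute log2 fold change divided by the square root of F.

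The 9 genes and the gene lists were chosen with earlier results of these data known. From each list the text names the 2 largest rises and 2 largest falls per comparison with an adjusted p below 0.1, an absolute log2 fold change above 1.5 and a mean of at least 1 CPM. The other interferon pathway values, STAT3, HLA-E, ZEB1, VIM, FN1 on silencing MUC1 or MYC, CDH2 on silencing MYC and the epithelial markers were added after their values were seen.

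On simulated data with 200 changed genes, each comparison recovered 99% to 100% of changes of log2 1, and the interaction of MUC1 silencing with GO-203 recovered 92%. The changed genes were drawn only from genes above a floor of expected counts, and all other genes were left unchanged. A single dispersion was used for all genes, below the common value estimated for the tet-MYCshRNA pair. These shares therefore do not cover genes of few counts such as LGALS9, or IDO1 with GO-203. Alternatives were DESeq2 1.42.0, RLE factors, library size alone, other filters, all libraries in a single fit, a replicate block, other thresholds, other mammospheres and leaving out each library.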

Additional observations from a re-analysis of the deposited data

Results flagged for a closer look

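The difference between the change on silencing MUC1 and the change on silencing MYC, tested as an interaction over 12 libraries with edgeR's quasi-likelihood test, passed an adjusted p of 0.1 for 8 of the 9 genes. On the log2 scale it was 2.18 for CD274 (adjusted p = 4.24e-06), 0.648 for PDCD1LG2 (0.00731), 1.44 for NT5E (5.14e-11), 0.681 for PVR (5.23e-06) and 1.67 for IDO1 (0.00359), where the change on silencing MUC1 was the more positive. It was -1.04 for CD276 (adjusted p = 2.46e-05), -1.02 for CD47 (8.19e-09) and -1.49 for NECTIN2 (7.74e-07), where it was the more negative.

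The difference between the change on silencing MUC1 and the change with GO-203, the 2 ways of targeting MUC1-C, passed the same threshold for 7 genes. It was 1.10 for CD274 (adjusted p = 0.000722), 1.15 for PDCD1LG2 (0.000209), 0.862 for NT5E (1.55e-09) and 2.95 for IDO1 (2.76e-05). It was -0.72 for CD276 (adjusted p = 6.11e-05), -0.298 for CD47 (0.0032) and -0.473 for NECTIN2 (0.000726). The experiments also differ in line, control and the block of libraries, which cannot be told apart from the means of targeting. Exposure times were not compared and may differ as well. The GO-203 dose here was below that of the study's immunoblots. Groups of 3 libraries were too small for an outlier test.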

How the results depend on the processing

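DESeq2 gave 53 results for the 9 genes and changed no call or direction among them, and it gave no adjusted p for IDO1 with GO-203. The count of called genes with GO-203 was 1 in place of 2 under DESeq2, library size alone, a filter of only 1 count, a minimum of 10 counts per library and an adjusted p below 0.05, 0 with an absolute log2 fold change above 1.5, and 1 to 2 when a library was left out. Where the count was 1, NT5E was the gene still called, and with the log2 fold change threshold NT5E (-0.91) was lost too. IDO1 had adjusted p between 0.0558 and 0.329 over its alternatives. The log2 fold change threshold of 1.5 left 3 genes in 3D vs. 2D cells, 1 on silencing MUC1 and 2 on silencing MYC.

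Library size alone raised the median over all genes on silencing MUC1 from 0.02 to 0.19 (log2) and the share of called genes that were higher from 49.3% to 64.4%, with 61.2% against 49.1% and 61.6% against 46.4% in the interactions, and moved PVR to 0.0942 and NT5E to 0.119 there. It also moved the PVR difference between MUC1 silencing and GO-203 to 0.0399 and ended the call for the CD47 difference there (-0.14, adjusted p = 0.113). With the minimum of 10 counts NT5E on silencing MUC1 was at 0.00266. With other mammospheres in place of 3D cells, CD274 was at 0.0849 and LGALS9 at -0.0827 and -2.23. With GO-203, uncalled estimates near 0 changed sign, CD47 to -0.00341 without the filter and -0.024 in the fit of all libraries. With 1 library left out they ranged from -0.0365 to 0.0544 for CD47, -0.32 to 0.051 for CD274, -0.014 to 0.0871 for CD276 and -0.051 to 0.21 for PDCD1LG2. The LGALS9 difference between MUC1 and MYC silencing ranged from -0.51 to 0.0394. Counts of called genes with 1 library left out were 8 to 8 in 3D vs. 2D cells, 6 to 7 on silencing MUC1 and 7 to 9 on silencing MYC. With an absolute fold change above 1.5, 5 remained on silencing MUC1, where CD47 and NECTIN2 were lost, and 7 on silencing MYC, where CD276 was lost. On silencing MYC the count was 7 without the filter and 9 in the fit of all libraries.

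The replicate numbers were not taken to pair the cultures, since no comparison had a correlation of deviations over 0.1 for every number (means -0.08, 0.19, 0.05 and -0.28). With 3 libraries per group this check cannot exclude pairing. For GO-203 against 3D cells the correlations were 0.392, -0.0426 and 0.228. With the replicate block, CD276 on silencing MYC was at 0.34 (adjusted p = 0.108), and no other call changed.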
